A study of Mus musculus with 14 samples.

Results

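Heterozygous loss of Chd7 in the cerebellar granule lineage was compared with wild type in 5 Het and 5 WT libraries, out of 14 libraries in all. The members were chosen by the labels alone, and the features were the 17325 of 41381 genes that reached a TPM (transcript share, scaled to the same total in every library) of at least 1 in at least 4 of the 14 libraries. Each library was total RNA from granule neuron progenitors (GNPs) purified from mouse cerebella at postnatal day 7, the age at which these cells divide in the external granule layer. The labels give Het 3 to 5 as Atoh1-Cre::Chd7 f/+, with 1 floxed and 1 intact Chd7 allele, Hom 3 and 4 (of 4 Hom libraries) as Atoh1-Cre::Chd7 f/f, in which both alleles are floxed, and WT 4 and 5 as Atoh1-Cre negative. WT 1 to 3, Het 1 and 2 and Hom 1 and 2 are labelled only as wild type, het mutant and hom mutant for Chd7. Atoh1-Cre drives recombination in the granule lineage, and according to the study's text it does so less completely in the posterior lobe. Where the labels name Cre, every mutant library carries it and WT does not, so the presence of Cre and the loss of Chd7 cannot be told apart. Strain is given as C56Bl6/J for WT 1 to 3, Het 1 and 2 and Hom 1 and 2, and as C57BL/6 for the rest, the sex of the pups was not discriminated, and the labels do not say whether a library was 1 pup or a pool. By the sex-linked transcripts given below, some libraries held RNA of both sexes and so of more than 1 pup. The spread between libraries may be partly technical.

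CHD7 is an ATP-dependent chromatin remodeller that binds enhancers and promoters, and heterozygous mutation of the human gene causes CHARGE syndrome, a disorder of gene dosage in which the cerebellum can be small. In the cerebellum granule neuron progenitors divide under the control of Sonic hedgehog, leave the cell cycle, switch on neuronal genes and migrate inwards past the Purkinje cells. The comparison addresses how much of the granule cell transcriptome moves when 1 copy of Chd7 is removed.

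The library labels could not be checked with the targeted gene. Chd7 (chromosome 4, 8690406 to 8867659, GRCm38) was at 121, 152, 132, 203 and 272 TPM in WT 1 to 5 and at 166, 181, 150.3, 149 and 137 TPM in Het 1 to 5. The highest libraries were WT 5 and WT 4, and the Het values lay within the WT range. The log2 change was -0.11 (SE 0.19, limma adjusted p = 0.957), with an interval of -0.52 to 0.30. It was 0.30 in batch 1 and -0.71 in batch 2. It became 0.07 without WT 5 and -0.18 without Het 2. A TPM value sums reads along the whole transcript, so a transcript that has lost only the floxed part can still be counted. Whether that was so here was not tested. The Hom libraries, at 126 to 185 TPM, did not stand apart either. None of the 40 tested genes with a start within 5 Mb of that of Chd7 reached an unadjusted p of 0.05 (changes of -0.91 to 0.23, median -0.001).

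The labelled cell type was checked against its markers. Zic1 and Pax6, transcription factors of granule cells, were at means of 918 and 706 TPM in WT and 898 and 674 TPM in Het, and all 13 progenitor markers passed the filter. Markers of other cells were present too. One library stood apart: after removal of the batch effect, Het 2 lay at 51.5 on the first principal component, and the other WT and Het libraries lay between -26.6 and 11. Its endothelial markers summed to 755 TPM, the highest of the 14 libraries, and the other Het libraries had 45.9 to 428 TPM. Among the 245 genes called lower in Hom against WT, Het 2 was the batch 1 Het library nearest to WT for 121 genes, against 64 for Het 1 and 60 for Het 3. Among the 220 genes called higher in Hom, the counts were 94 for Het 2, 76 for Het 3 and 50 for Het 1, and in batch 2 Het 4 was nearer to WT than Het 5 for 173 genes against 47. Several results are therefore given with and without Het 2. Het 2 was singled out in part for its nearness to WT in these same libraries. Leaving it out thus favours larger changes in genes called in Hom, among them Cadps2, Reln and Grik2. The p-values without Het 2 describe the data and are not separate support.

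At an adjusted p under 0.05, 0 genes were lower (0% of those tested) and 1 gene, Trmt9b, rose (0.00577%). At an unadjusted p under 0.05, 499 genes were lower (2.88%) and 555 were higher (3.2%). Changes were small: the median absolute log2 change was 0.0935 and the median standard error 0.128, so that a gene with the median error needed a change of 0.28 to reach an unadjusted p of 0.05. Only 3 genes were below an adjusted p of 0.1, and 9 lower and 12 higher genes were below 0.2. Without Het 2 the calls were 6 lower (among them Epha3, Cdh10, Cadps2, Grik2 and Reln) and 7 higher (Chrdl2, Trmt9b, Sycp1, Myt1l, Gm27544, Chrna3 and Olfm1). Those of these genes that no rule named, Cdh10, Myt1l, Chrna3 and Olfm1, are named because they made up these counts. Without WT 5 the limma calls were 0 lower and 0 higher. Adjusted p-values were then 0.4265 for Reln, 0.3055 for Cadps2, 0.2737 for Grik2 and Epha3, and 0.1485 for Chrdl2. The values without Het 2 given below for these 5 genes are thus the favourable exclusion of the 2.

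**Figure D1:**
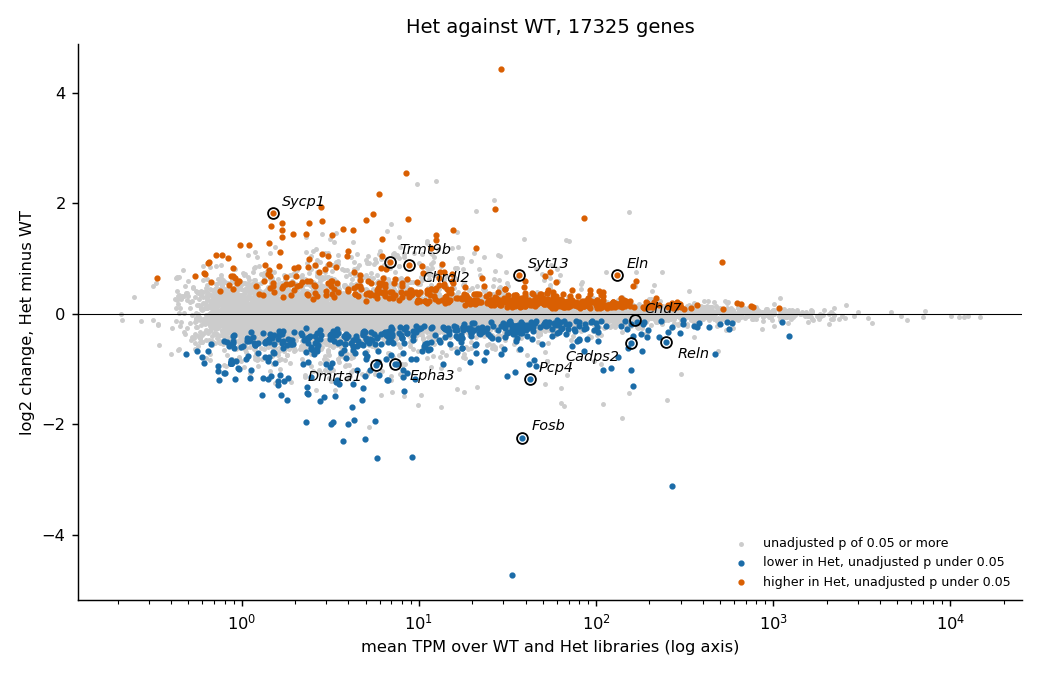
Each point is 1 of the 17325 genes tested, with its mean TPM over the WT and Het libraries on the x axis (log axis) and its log2 change, Het minus WT, on the y axis. The 499 genes lower and 555 genes higher at an unadjusted p under 0.05 are coloured, and circles mark genes described in the text, with Trmt9b, at 0.95, the only one below an adjusted p of 0.05.

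The extremes of that plot are processed pseudogenes, named here after their values were seen, whose reads can be shared with their parent genes. Gm6750 was at 115, 138, 16.8, 45.8 and 9.07 TPM in WT and at 0 TPM in every Het library except Het 4 (9.72 TPM). Rps15a-ps8, a copy of a ribosomal protein gene, was at 0 TPM in WT 1, 2, 3 and 5 and at 48.8 TPM in WT 4, against 31.3 to 71.5 TPM in Het. Neither was below an adjusted p of 0.05 (0.417 and 0.539), and how reads were divided between copies was not tested.

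Trmt9b (ENSMUSG00000039620; chromosome 8, 36457548 to 36516570), a member of the tRNA methyltransferase 9 family, was the only gene that passed. It was at 4.75, 4.48, 4.18, 3.94 and 4.53 TPM in WT 1 to 5 and at 10, 8.43, 9.05, 8.61 and 10.8 TPM in Het 1 to 5. All Het libraries lay above all WT libraries, and the gap between the groups was wider than the range of either. The mean was 4.38 ± 0.317 TPM (SD, n = 5) in WT and 9.38 ± 1.004 TPM (SD, n = 5) in Het, and the log2 change was 0.95 (SE 0.12, limma adjusted p = 0.0360). It was 0.89 in batch 1 and 1.03 in batch 2. In Hom the gene was at 10.5, 7.17, 7.39 and 9.32 TPM, of which 7.17 and 7.39 TPM lie below the Het range, and the Hom minus Het difference was -0.12 (adjusted p = 0.997). The call rested on narrow margins: leaving out each of the 14 libraries in turn kept it in 4 fits, and the change then lay between 0.89 and 0.98. Of the 12 genes for modification of the tRNA wobble uridine, the list to which Trmt9b was assigned, 0 were lower and 1, Trmt9b itself, was higher (median 0.05, against 0.007 for all genes), and Elp2, a subunit of the Elongator complex, was at 107.5 TPM in WT and 109 TPM in Het.

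Sycp1, a protein of the synaptonemal complex that pairs chromosomes in meiosis, came next by p-value and is named after its values were seen. It was at 0, 0.07, 0.20, 0 and 0.02 TPM in WT 1 to 5 and at 4.36, 1.55, 1.40, 4.43 and 3.03 TPM in Het 1 to 5. WT libraries were at or near 0 and every Het library was above 1 TPM, and so was every Hom library, at 1.62, 4.40, 2.98 and 2.35 TPM. On the log2 scale Het minus WT was 1.82 (SE 0.26, adjusted p = 0.0535). Hom minus WT was 1.80 (adjusted p = 0.00298). Sycp1 met the filter of 1 TPM through Het and Hom libraries only, since no WT library exceeded 0.20 TPM. In Het it did not pass in the main fit or without WT 5 (1.78, adjusted p = 0.1485). It passed in Het with a pseudocount of 0.1 (4.26, adjusted p = 0.00803), which widens differences from values near 0. It also passed without Het 2 (1.95, adjusted p = 0.0274). C1ql1, a secreted C1q-like protein that binds the adhesion receptor Adgrb3, was likewise at similar levels in Het and Hom (named after its values were seen). It was at 51.2, 56.5, 48.6, 87.5 and 69.2 TPM in WT and at 66.9, 73.8, 70.5, 106 and 103 TPM in Het, with every Het library above the WT libraries of its own batch. Its change was 0.42 in both genotypes (adjusted p = 0.1075 in Het and 0.00638 in Hom).

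Promoter windows are shown for genes on which the results turn: Sycp1, which was near 0 in WT only, Epha3, and Cadps2, whose Het values lay between those of WT and Hom. The windows run from 250 bases before to 50 bases after the annotated start, are taken from RefSeq (GRCm38.p6) and are written 5′ to 3′ on the gene's strand, here minus in each case. Of 79 named genes at an unadjusted p under 0.05, 48 had an entry. Capitals mark matches to the E-box letters CAGATG or CAGCTG, read on both strands (CAGATG also as CATCTG, while CAGCTG reads the same on both strands).
Sycp1, chr3:102936051-102936350: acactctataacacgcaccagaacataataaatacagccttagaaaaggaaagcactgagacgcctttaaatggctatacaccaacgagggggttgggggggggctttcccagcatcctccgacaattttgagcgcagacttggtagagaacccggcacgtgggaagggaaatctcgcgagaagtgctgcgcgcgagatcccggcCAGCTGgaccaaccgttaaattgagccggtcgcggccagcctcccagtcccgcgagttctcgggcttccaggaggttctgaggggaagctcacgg
Epha3, chr16:63864126-63864425: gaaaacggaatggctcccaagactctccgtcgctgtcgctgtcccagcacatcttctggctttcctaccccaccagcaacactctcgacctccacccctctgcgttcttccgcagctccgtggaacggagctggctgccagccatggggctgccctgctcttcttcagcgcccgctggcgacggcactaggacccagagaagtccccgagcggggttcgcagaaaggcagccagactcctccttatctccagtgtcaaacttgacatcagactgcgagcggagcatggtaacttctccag
Cadps2, chr6:23839372-23839671: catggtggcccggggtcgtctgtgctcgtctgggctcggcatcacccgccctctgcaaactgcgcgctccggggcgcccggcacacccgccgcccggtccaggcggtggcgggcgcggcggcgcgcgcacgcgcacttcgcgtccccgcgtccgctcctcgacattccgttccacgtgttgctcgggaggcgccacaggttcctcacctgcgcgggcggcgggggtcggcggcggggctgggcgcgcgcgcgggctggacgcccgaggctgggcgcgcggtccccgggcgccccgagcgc
The Sycp1 window held 1 match and the Epha3 and Cadps2 windows 0, and 30.6% of the 32851 windows of 300 bases in the table held at least 1. The CG dinucleotide occurred 21 times in the Sycp1 window, 18 times in the Epha3 window and 54 times in the Cadps2 window, against a median of 7 over all windows.

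Every Het library lay below every WT library of its batch for 189 genes (1.09%) and above for 248 genes (1.43%). Together with an unadjusted p under 0.01 and a mean of at least 5 TPM, this left 61 lower genes, 54 of them protein coding, with a median change of -0.423, and 81 higher genes, 77 of them protein coding, with a median of 0.306. The log2 difference was beyond 0.5 for 23 of the lower genes and 12 of the higher genes. These genes were chosen on the same values, so the counts describe them and test nothing.

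The 8 genes with the most negative differences in this set were Mir2861, Pcp4, Snord83b, Hba-a1, Cd83, Gm16111, Dmrta1 and Epha3. Epha3, a receptor for ephrins in axon guidance, was at 8.44, 9.75, 9.87, 9.54 and 11.2 TPM in WT and at 4.06, 7.40, 3.77, 4 and 5.11 TPM in Het. All Het libraries were below all WT libraries, and Het 2 was the highest of them. The change was -0.90 (SE 0.16, adjusted p = 0.1345), and -1.04 without Het 2 (adjusted p = 0.0149). Dmrta1, a doublesex-related transcription factor, was at 5.31 to 11.9 TPM in WT and at 3.11 to 4.10 TPM in Het, also without overlap, with a change of -0.93 (adjusted p = 0.225).

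The rest included genes known from other cells and short or overlapping transcripts. Pcp4, a calmodulin-binding peptide of Purkinje cells, had a difference of -1.19 in all, one of -1.80 in batch 1 and one of -0.27 in batch 2. Hba-a1, an alpha globin of red blood cells whose near-identical copy Hba-a2 shares its reads, had a difference of -1.12, and Cd83, a surface protein of activated immune cells, one of -1.02, with WT 5 at 27.7 TPM and the other WT libraries at 5.23 to 9.42 TPM. Mir2861 (-2.0003) and Snord83b (-1.14) are short RNAs of under 100 bases, and Gm16111 (-0.94) lies within Reln, so that reads of these overlapping genes cannot be told apart unless the strand was used, which the sources used here do not state.

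The 8 genes with the most positive differences were Trmt9b, Chrdl2, Syt13, Eln, Flnc, Gm25184, Gm27544 and Gm10557. Chrdl2, a chordin-like antagonist of BMP proteins, was at 4.29, 5.56, 5.31, 7.11 and 7.08 TPM in WT and at 11.6, 7.01, 11.02, 15.2 and 14.1 TPM in Het. Het 2, the lowest Het library, overlapped the WT libraries of batch 2 and lay above those of batch 1. The change was 0.88 (SE 0.13, adjusted p = 0.0535), and 0.998 without Het 2 (adjusted p = 0.00114). In Hom the gene was at 15.9 to 21.7 TPM, above every Het library.

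Syt13, an atypical synaptotagmin, was at 23.9, 25.5, 21.5, 30.4 and 38.4 TPM in WT and at 50.5, 35.9, 46.5, 43.3 and 50.6 TPM in Het, with 1 Het library, Het 2, below WT 5. Its change was 0.70 (SE 0.13, adjusted p = 0.1345). Eln, the elastin of elastic fibres, was at 89.2 to 119 TPM in WT and 122 to 208 TPM in Het, without overlap, and had a difference of 0.70 (adjusted p = 0.284). Flnc, an actin crosslinker, had a difference of 0.59, with Het 5 at 10.1 TPM and the other Het libraries at 5.35 to 5.74 TPM. The predicted transcripts Gm25184 (1.51), Gm27544 (0.86) and Gm10557 (0.75) completed the set.

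**Figure D2:**
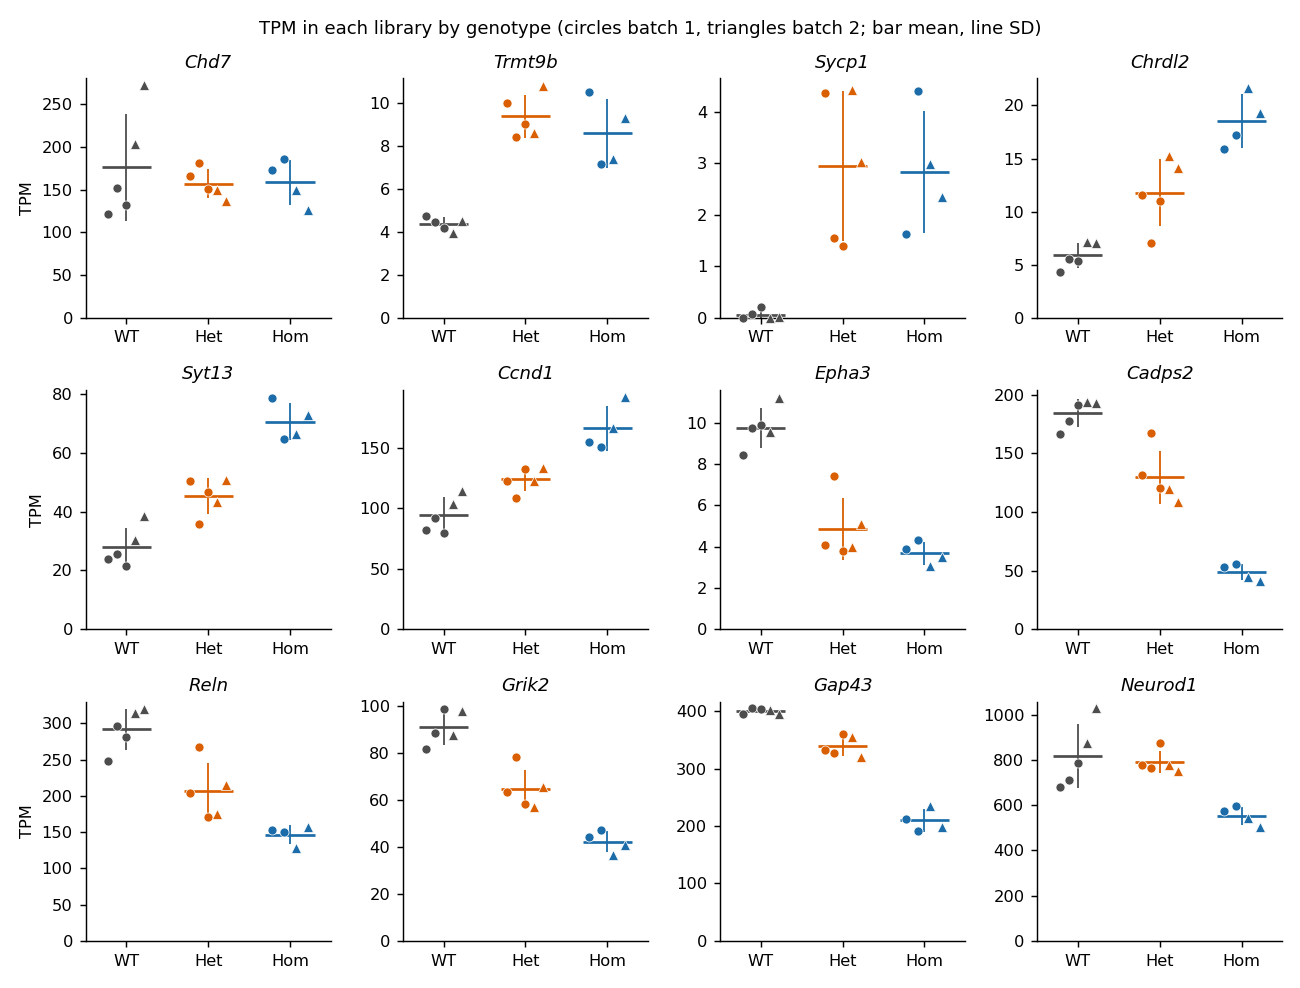
TPM (y axis) of 12 genes in each WT, Het and Hom library, with circles for batch 1, triangles for batch 2, a bar at the group mean and a line of 1 SD. Trmt9b and Sycp1 lie at similar levels in Het and Hom and above all WT libraries, the Het means of Cadps2 and Chrdl2 lie between those of WT and Hom, and Chd7 overlaps in all 3 groups.

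Over all genes tested, 2.88% were lower in Het and 3.2% higher at an unadjusted p under 0.05. Of 13 genes that the study's text singles out, 10 were lower at that threshold and 0 were higher, with a median change of -0.444. The study chose this list in part on these libraries, so its direction is not independent evidence. Cadps2, a calcium sensor for the release of dense core vesicles, was at 166, 178, 191, 194 and 193 TPM in WT 1 to 5 and at 132, 167, 121, 119 and 109 TPM in Het 1 to 5. Het 2 lay just above WT 1 and the other Het libraries were below all WT libraries. Its change was -0.52 (SE 0.10, adjusted p = 0.161), and -0.60 without Het 2 (adjusted p = 0.0276). In Hom it was at 41.3 to 55.6 TPM, below every Het library, and the Hom minus Het difference was -1.37 (adjusted p = 5.14e-05).

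Reln, the secreted glycoprotein that positions Purkinje cells, was at 249, 297, 282, 314 and 319 TPM in WT and at 204, 267, 171, 175 and 216 TPM in Het. Again Het 2 alone overlapped WT. The change was -0.51 (SE 0.11, adjusted p = 0.284), and -0.61 without Het 2 (adjusted p = 0.0324). Of the 13 genes of the reelin pathway, Reln was the only one lower and 0 were higher at an unadjusted p under 0.05 (median -0.010), and Dcx, a microtubule protein of migrating neurons in the same list, was at 297 TPM in WT and 291 TPM in Het.

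Gap43, a growth cone protein, had the tightest groups of the list, with 396, 406, 404, 402 and 395 TPM in WT and 333, 328, 360.1, 354 and 320.0 TPM in Het. No Het library reached any WT library, and the Het mean was 84.6% of that of WT. Its change was -0.24 (SE 0.06, adjusted p = 0.312), and the change was the same in the 2 batches to 2 decimals (-0.24 in each). In Hom the gene was at 191 to 236 TPM, with a Hom minus Het difference of -0.70 (adjusted p = 0.00013).

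Bmp5, a BMP ligand, was at 7.14 to 12.2 TPM in WT and at 3.84 to 6.96 TPM in Het, without overlap, and had a difference of -0.75 (adjusted p = 0.312). Nkain3, a partner of the sodium pump, was at 7.95 to 10.3 TPM in WT and 5.59 to 7.77 TPM in Het, also without overlap, and had a difference of -0.44. Kcnd2, the Kv4.2 potassium channel, had a difference of -0.62, with Het 2 at 19.97 TPM among the WT values of 17.5 to 24.3 TPM and the other Het libraries at 10.8 to 13.6 TPM. Fstl5, a follistatin-like secreted protein, had a difference of -0.45, Cacna2d1, a calcium channel subunit, one of -0.37, and Unc5c, a netrin receptor that guides granule cell migration, one of -0.33. For Unc5c the change was -0.09 in batch 1 and -0.68 in batch 2.

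The other 3 genes of the list did not reach an unadjusted p of 0.05. Neurod1, the transcription factor of granule cell differentiation, was at 679, 710, 788, 873 and 1032 TPM in WT and at 776, 766, 876, 779 and 753 TPM in Het, so that the Het values lay inside the WT range. The log2 change was -0.03 (SE 0.10, adjusted p = 0.980), with an interval of -0.25 to 0.18. By batch it was 0.15 in batch 1 and -0.31 in batch 2, where both Het libraries lay below both WT libraries. In Hom the gene was at 501 to 596 TPM, below every WT and Het library. Zfpm2, a GATA cofactor, had a difference of -0.25, which was -0.05 in batch 1 and -0.56 in batch 2. Without Het 2 it was -0.43, at an unadjusted p of 0.015, and without WT 5 it was -0.16. Cnksr3, a signalling scaffold, had a difference of 0.07.

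Genes of neuronal signalling were then read against all genes tested, of which 2.88% were lower at this threshold. Of 22 tested glutamate receptor genes, 4 were lower and 0 higher (median -0.202). Grik2, a kainate receptor subunit that is also in the study's list, was at 81.6, 88.6, 98.9, 87.6 and 98.0 TPM in WT and at 63.4, 78.3, 58.4, 57.1 and 65.6 TPM in Het, without overlap, with Het 2 again the nearest to WT. Its change was -0.49 (SE 0.09, adjusted p = 0.1345), and -0.56 without Het 2 (adjusted p = 0.0324). Gria4, an AMPA receptor subunit, had a difference of -0.39 (adjusted p = 0.161). Gria2, the subunit that keeps AMPA receptors from passing calcium, had one of -0.28. Of 10 tested GABA-A receptor subunits, 0 were lower and 0 higher (median -0.100).

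Of 28 genes for vesicle release, 7 were lower and 0 higher by the same threshold, with a median of -0.054. Syt1, the calcium sensor of fast release, was at 28.2 to 31.4 TPM in WT and 18.5 to 24.4 TPM in Het, without overlap, and had a difference of -0.43 (adjusted p = 0.1345). Ppfia2, a scaffold of the active zone, had a difference of -0.31, and Syp, the vesicle protein synaptophysin, was at 195 TPM in WT and 172 TPM in Het. Adgrb3, the receptor of C1ql1, was named after its values were seen and was at 36.4 to 44.9 TPM in WT and 27.1 to 31.4 TPM in Het, with a change of -0.49 (adjusted p = 0.1345).

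Ion channel, axon guidance and adhesion genes were found on both sides. Of 29 tested potassium and calcium channel genes, 3 were lower and 2 higher (median -0.079), with Kcnd2 and Cacna2d1 as above, Kcnj3, a G protein-gated channel, at -0.27 and Kcnk9, a leak channel, at 0.27. Of 30 tested axon guidance genes, 3 were lower and 4 higher (median 0.043). Slit1, a repellent ligand of Robo receptors, was at 0.79 to 1.55 TPM in WT and at 3.49, 1.19, 3.23, 2.20 and 8.26 TPM in Het, with Het 2 inside the WT range, and at 22.3 to 33.3 TPM in Hom. Het minus WT was 0.99 (adjusted p = 0.467). Hom minus WT was 3.64 (adjusted p = 2.29e-05).

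Sema3a, a secreted semaphorin, had a difference of -0.54, Ntng2, a membrane-bound netrin, one of 0.31 and Neo1, a netrin receptor, one of 0.22. Of 31 tested neuronal adhesion genes, 3 were lower and 2 higher (median 0.053). Alcam, an immunoglobulin adhesion molecule, was at 54.2 to 66.7 TPM in WT and 34.7 to 45.4 TPM in Het, without overlap, and had a difference of -0.55 (adjusted p = 0.284). Cdh4, a cadherin, had a difference of 0.35 and Sdk2, a sidekick adhesion molecule, one of 0.52. Of 29 BMP and Wnt genes, 3 were lower and 2 higher (median -0.033), with Bmpr1b, a BMP receptor, at -0.42, Fzd1, a Wnt receptor, at -0.27 and Lef1, a Wnt-responsive factor, at 0.84 beside Bmp5. Lef1 was low, at 0.32 to 2.70 TPM in WT and 1.36 to 4.95 TPM in Het, with Het 2 the highest. Its change was 1.18 in batch 1, 0.33 in batch 2 and 0.61 without Het 2.

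**Figure D3:**
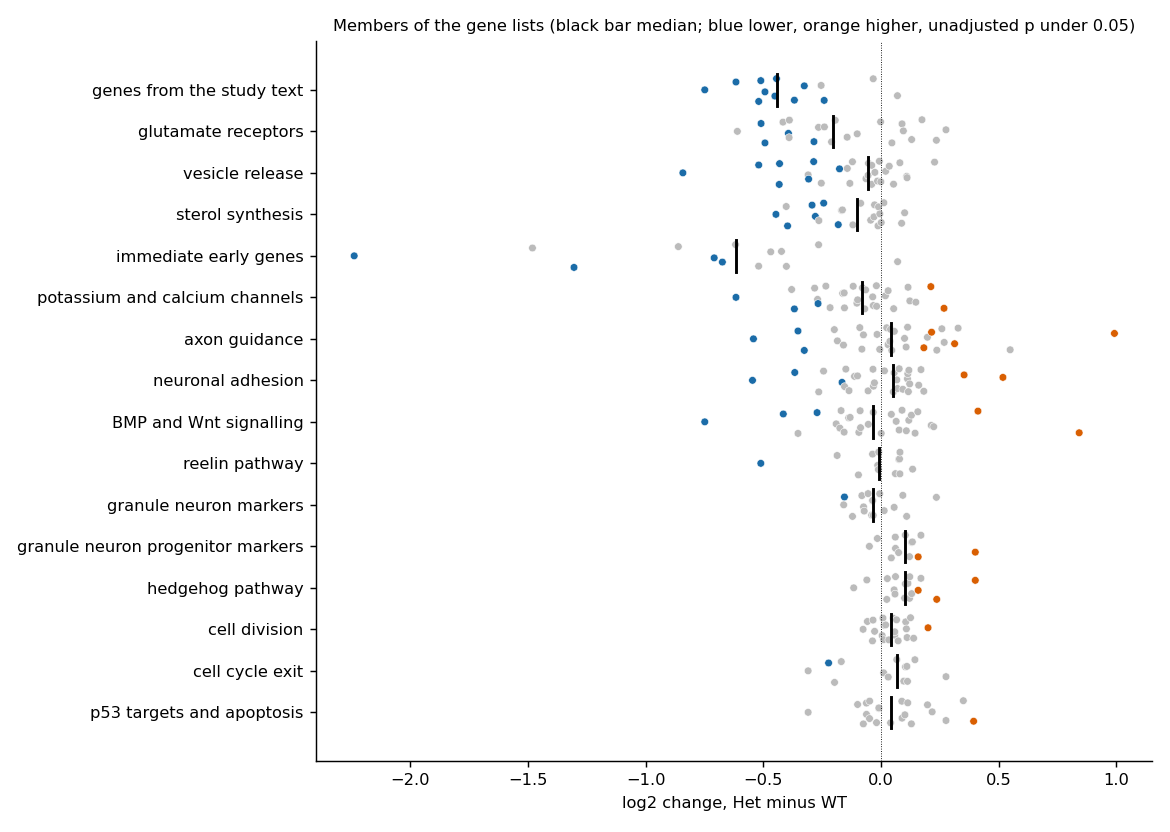
Each point is 1 tested gene of a list, placed by its log2 change, Het minus WT, on the x axis, with blue for lower and orange for higher at an unadjusted p under 0.05 and a black bar at the list median. Among the lists plotted, the immediate early genes (-0.618) and the 13 genes from the study's text (-0.444) have the medians farthest from 0, and the reelin pathway, granule neuron and cell division lists lie around 0.

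Genes of the progenitor state that reached this threshold were all higher, where 3.2% of all genes tested were higher. Of the 13 progenitor markers 2 were higher and 0 lower (median 0.104, but -0.105 in batch 2), and of 17 hedgehog pathway genes 3 were higher and 0 lower (median 0.104, and -0.047 in batch 2). The lists share members: the 2 higher progenitor markers, Ccnd1 and Boc, are also among the 3 hedgehog genes, so the counts are not separate. Ccnd1, the D cyclin that hedgehog signalling induces in these cells, was at 82.0, 91.9, 79.7, 104 and 114 TPM in WT and at 123, 109, 132, 123 and 133 TPM in Het, with Het 2 alone below WT 5. Its change was 0.40 (SE 0.08, adjusted p = 0.149), and the Hom values were 151 to 192 TPM. Gas1 and Boc, co-receptors of Sonic hedgehog, had a difference of 0.24 and 0.16, while Ccnd2, another D cyclin, was at 342 TPM in WT and 376 TPM in Het.

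For the next lists too, 2.88% of all genes tested were lower and 3.2% higher at this threshold. Of 22 cell division genes 1 was higher, Mcm6 of the replicative helicase (0.20), and 0 were lower (median 0.042). Of 13 cell cycle exit genes 1 was lower, Ccng2, an atypical cyclin (-0.22, and -0.17 without Het 2, above an unadjusted p of 0.05), and 0 were higher. Of 17 tested granule neuron markers 1 was lower, Cbln1, a synaptic organiser of parallel fibres (-0.16), and 0 were higher (median -0.036). Of 21 tested p53 targets and apoptosis genes 1 was higher, Aen, a p53-induced nuclease, at 22.04 to 25.7 TPM in WT and 26.4 to 46.7 TPM in Het without overlap (0.39), and 0 were lower.

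Genes related to Chd7 itself were examined as well. Of 9 CHD remodellers (median -0.008) 1, Chd2, was lower (-0.19) and 1, Chd4, the helicase of the NuRD complex, higher (0.17, with 0.28 in batch 1 and 0.01 in batch 2). Of 6 partner proteins of Chd7 0 were lower and 0 higher, with Top2b, a topoisomerase, at 234 TPM in WT and 244 TPM in Het. Of 13 tested genes related to CHARGE syndrome or its sensory and hormonal features (median -0.02), 1, Sema3a, was lower and 1, Eftud2, a spliceosome protein, higher (0.14). With 2.88% of all genes tested lower and 3.2% higher at this threshold, 1 gene each way is not read as a result about either list.

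Of 22 genes for sterol synthesis 6 were lower and 0 higher, against 2.88% and 3.2% of all genes tested (median -0.103, against 0.007 for all genes). Msmo1, a sterol oxidase, had a difference of -0.45, Sc5d, a desaturase, one of -0.29 and Hmgcs1, an early enzyme of the pathway, one of -0.24, none below an adjusted p of 0.5. Sc5d was at 40.9, 44.98, 42.8, 45.1 and 46.8 TPM in WT and at 36.9, 40.8, 35.8, 37.6 and 28.9 TPM in Het. All Het libraries lay below all WT libraries, with Het 2 just below WT 1.

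Of 13 tested immediate early genes, which neurons switch on within minutes of stimulation or handling, 4 were lower and 0 higher (median -0.618). Among all genes tested 2.88% were lower and 3.2% higher. Fos was at 157, 165, 186, 55.4 and 666 TPM in WT and at 40.6, 64.1, 137, 93.3 and 56.0 TPM in Het. WT 5 was far above all other libraries and WT 4 was among the Het values, so the groups overlapped. The change was -1.30 (SE 0.51, adjusted p = 0.728), and those of Fosb, Junb and Jun were -2.24, -0.71 and -0.67. Without WT 5 the median of the list was -0.253, and Fos, Junb and Jun were at -0.78, -0.40 and -0.35, none of them below an unadjusted p of 0.05. Fosb was then at -1.49 (adjusted p = 0.732). The part that handling during dissociation had in these values was not tested.

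Marker lists of other cell types differed in level between libraries, and in bulk libraries fewer cells of a type and less RNA per cell cannot be told apart. Counts are again beside 2.88% lower and 3.2% higher among all genes tested, with a median of 0.007. Endothelial markers had a median change of 0.994 over 12 genes, of which 1, Kdr, the VEGF receptor, was higher at an unadjusted p under 0.05 (1.196). The list summed to 59.9 to 352 TPM in WT and 45.9 to 755 TPM in Het, with a median change of 1.499 in batch 1 and 0.18 in batch 2. Without Het 2 the median was 0.446 and Kdr, at 0.79, was above an unadjusted p of 0.05. Cldn5, the tight junction protein of brain vessels, was at 5.39 TPM in Het 3 and 229 TPM in Het 2. Mural cell markers had a median of 0.393 over 8 genes with 0 lower and 0 higher, with 0.727 in batch 1, -0.162 in batch 2 and 0.0453 without Het 2.

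Astroglia markers had a median of -0.319 over 12 genes, with 0 lower and 0 higher. They summed to 511 to 2032 TPM in WT and 693 to 1291 TPM in Het, and the median was -0.652 in batch 1 and 0.057 in batch 2. Fabp7, the fatty acid binding protein of Bergmann glia, was at 973, 979, 669.8, 346 and 176 TPM in WT and at 294, 289, 593, 305 and 246 TPM in Het, so that WT 1, 2 and 3 were the highest of all, WT 4 lay within the Het range and WT 5 was below it. Of 9 tested Purkinje cell markers, Calb1, a calcium buffer, and Pcp4 were lower. Calb1 was at 17.6, 18.4, 13.1, 1.76 and 0.61 TPM in WT, against 0.57 to 5.85 TPM in Het, and its change was -2.07 in batch 1, 0.11 in batch 2 and -0.75, above an unadjusted p of 0.05, without Het 2.

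Of 5 tested red blood cell markers 4 were lower, against 2.88% of all genes tested (median -1.02). Among them Hbb-bs, the main adult beta globin, was at 93.0 to 271 TPM in WT and 49.9 to 137 TPM in Het. Oligodendroglia (10 genes, median 0.041), microglia (10 genes, -0.044), meningeal (8 genes, 0.147) and inhibitory interneuron markers (7 genes, -0.033) had 0 lower and 0 higher. Of 3 tested markers of unipolar brush cells and nuclear neurons Tbr1 was lower, at 1.05 to 2.60 TPM in WT and 0.57 to 1.04 TPM in Het. Of 5 tested choroid plexus markers 1 was higher, Clic6, a chloride channel protein, at 1.45 to 2.82 TPM in WT, 3.45 to 5 TPM in Het and 8.96 to 12 TPM in Hom (0.81, adjusted p = 0.1345). Ttr, the transthyretin that defines the choroid plexus, ranged from 0.42 to 488 TPM in WT and from 0.22 to 129 TPM in Het, each high value being that of a single library. The 5 sex-linked transcripts had 0 lower and 0 higher. Xist, which females express, and the Y-linked Eif2s3y were both present in WT 1 (256 and 48.9 TPM) and WT 5 (109 and 88.0 TPM). Both were also present in Het 3 (315 and 37.5 TPM) and Het 4 (184 and 55.9 TPM). In WT 2, WT 4 and Het 1, Eif2s3y was at 0.66 TPM or less. In WT 3, Het 2 and Het 5, Xist was at 0.35 TPM or less. The part of sex and of the other cell types in the neuronal results was not tested.

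**Figure D4:**
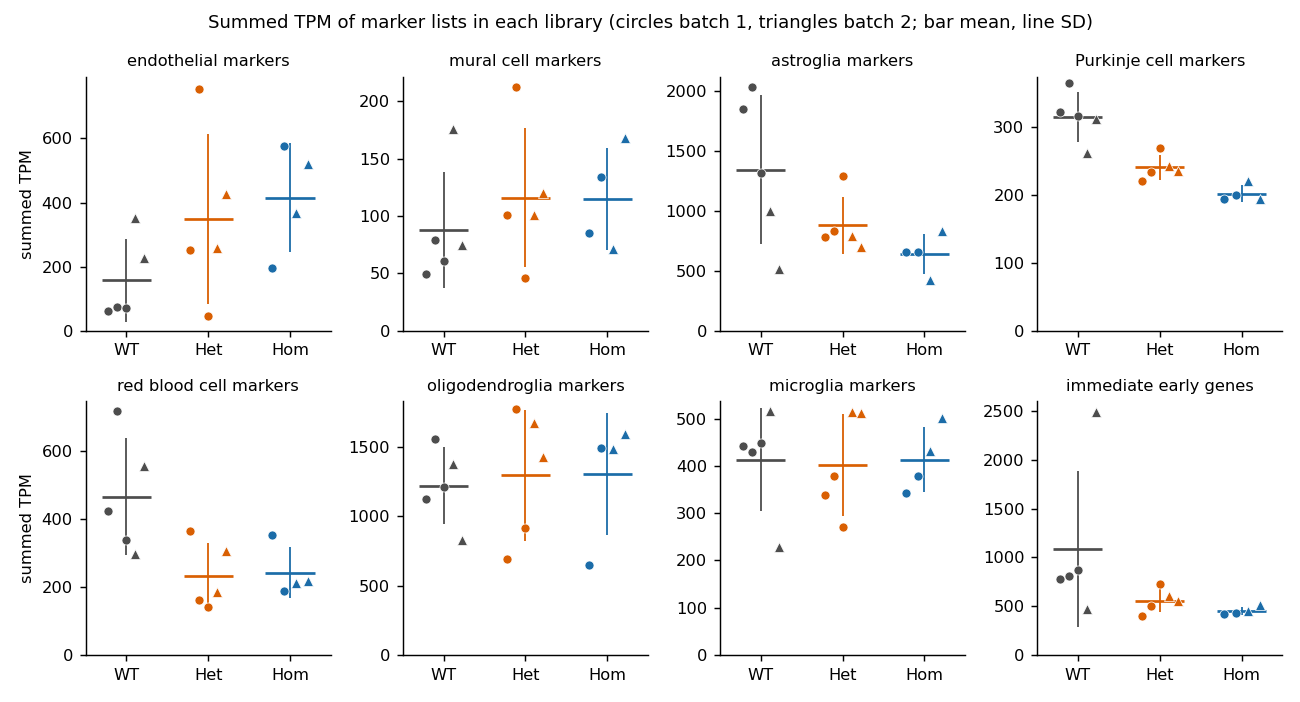
Summed TPM (y axis) of 8 gene lists in each WT, Het and Hom library, with circles for batch 1, triangles for batch 2, a bar at the group mean and a line of 1 SD. Het 2 has the highest endothelial sum (755 TPM), WT 1 and WT 2 the highest astroglia sums, and WT 5 the highest immediate early gene sum (2487 TPM).

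The 2 batches share no library, so genes picked in one can be read in the other. Of 212 genes lower in Het at an unadjusted p under 0.01 in batch 1, 112 (52.8%) were also lower in batch 2, where 49.6% of all genes were lower, and of 214 higher genes 108 (50.5%) were higher, against 50.2% of all genes. In the other direction, 61 of 126 genes lower in batch 2 (48.4%) were lower in batch 1, against 46.2%, and 27 of 49 higher genes (55.1%) were higher, against 53.7%. The interaction of genotype with batch was called for 1 gene (0.00577%). Gm3608, named after its values were seen, was at 21.2, 19.4 and 14.5 TPM in Het 1 to 3 and at 37.2 and 30.5 TPM in Hom 1 and 2. In every other library, the WT libraries and all mutant libraries of batch 2, it was at 2.61 TPM or less. The Het effect differed between batches by -3.54 (adjusted p = 0.0486).

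Gene span, the distance from annotated start to end, was examined because the study compared long and short genes. Genes over 100 kb had a median change 0.0084 above that of the rest (exact two-sided permutation p = 0.8 over 120 arrangements of the labels within batch). The longest and the shortest genes held larger shares of lower genes than the middle of the range. Of the 194 genes over 500 kb, 18 (9.28%) were lower at an unadjusted p under 0.05 and 1 (0.515%) was higher, with a median of -0.057, and of the 3808 genes of up to 5 kb, 186 (4.88%) were lower and 86 (2.26%) higher. Between 20 and 50 kb, 69 of 3970 genes (1.74%) were lower and 153 (3.85%) higher. The 18 long genes include Adgrb3, Syt1, Grik2, Cadps2, Nkain3, Kcnd2 and Fstl5, and in 7 of the 18 every Het library lay below every WT library of its batch. The limit of 500 kb was chosen after the values were seen and was not tested.

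The Hom libraries were measured against the same WT libraries. The changes in Het and Hom were -0.51 and -0.99 for Reln and -0.49 and -1.08 for Grik2. They were 0.88 and 1.47 for Chrdl2, 0.70 and 1.31 for Syt13, and 0.81 and 1.95 for Clic6. For Trmt9b, Sycp1 and C1ql1 they were 0.95 and 0.83, 1.82 and 1.80, and 0.42 and 0.42. Both comparisons use the 5 WT libraries, so their changes are not independent.

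**Figure D5:**
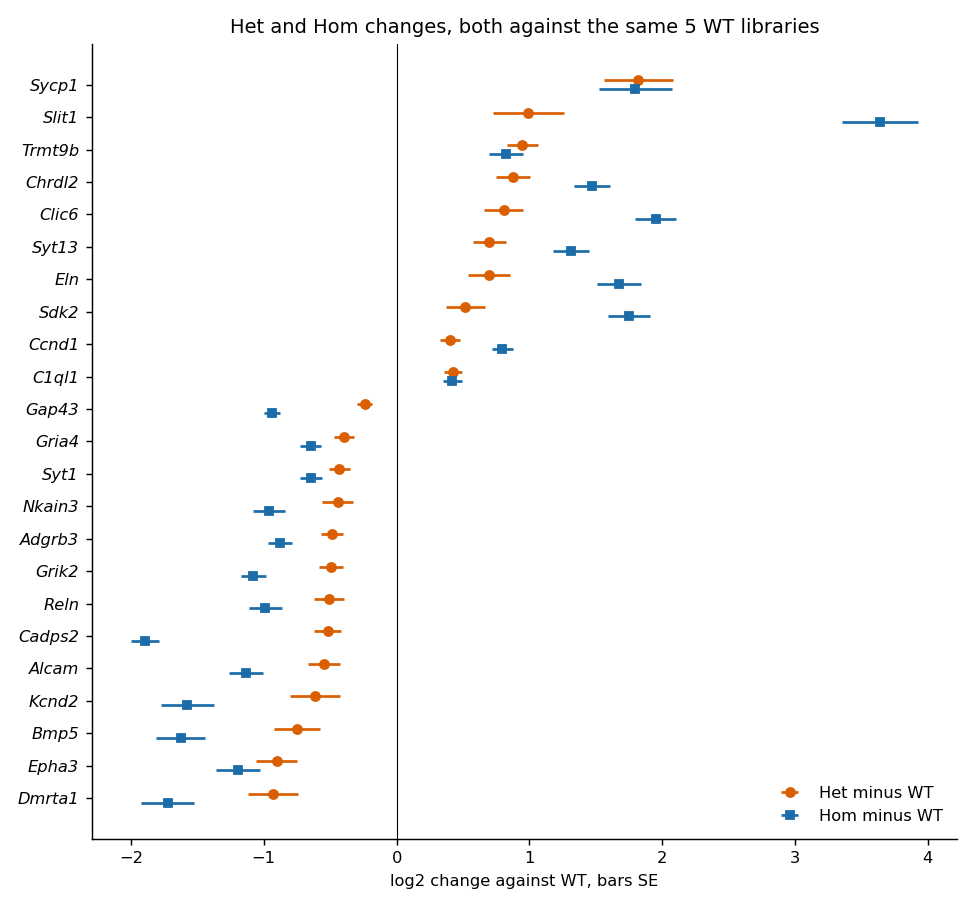
Log2 changes against WT (x axis) of 23 named genes in Het (circles) and Hom (squares), with bars of 1 SE; both are measured against the same 5 WT libraries. For Trmt9b, Sycp1 and C1ql1 the Het and Hom points lie together, and for Cadps2 (-0.52 and -1.89) and Slit1 (0.99 and 3.64) they lie far apart.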

How the data were processed

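Total RNA of granule neuron progenitors was sequenced as single-end reads by the authors, whose notes name RSEM 1.2.15 and Bowtie 1.0.0, run with default settings on the mm10 transcriptome of Ensembl. The authors deposited 1 table of gene-level TPM, scaled to one total in every column, so depth per library is unknown and no counting interval was computed. Control columns hold WT by number. No columns were identical.

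Genes reaching 1 TPM in 4 or more of the 14 libraries were analysed as log2(TPM + 1), which understates changes of low genes. limma 3.58.1 (R 4.3.3) was fitted to all 14 libraries with terms for genotype and for sequencing batch and an intensity trend. Two-sided p-values were adjusted by Benjamini-Hochberg over 17325 genes, and genes with an adjusted p under 0.05 were called. The study's methods give batch 1 as WT 1 to 3, Het 1 to 3 and Hom 1 and 2. The form of the sample titles would put Het 3 in batch 2, which was an alternative. ComBat, used by the study, was not run. On simulated data the fit was tested with known changes. Symbols and positions are from GENCODE M21 (GRCm38).

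The 33 gene lists, the members and the tests were chosen with earlier results of these data known. Besides Chd7, called genes and 13 genes from the study's text, the genes named were the 8 largest falls and 8 largest rises with an unadjusted p under 0.01, a mean of at least 5 TPM in WT or Het and every Het library beyond every WT library of its batch, and in each list up to 4 genes with the smallest p under 0.05 and the 2 with the highest TPM. Alternatives covered the pseudocount, filters, scaling, batch, weights, pairing, test and leaving out each library. A few genes that these rules name are not reported here.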

Additional observations from a re-analysis of the deposited data

Results flagged for a closer look

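In 6 of the 74 groups of 5 libraries examined (37 genes, WT and Het), 1 library lay far from the others. Chance alone flags about 1 group in 20, but some of these genes were picked on their values, so that rate does not apply to them. Not every gene reported above was among the 37. Neurod1 was at 875.62 TPM in Het 3, with the other Het libraries at 753 to 779 TPM. Cd83 was at 27.65 TPM in WT 5, Flnc at 10.09 TPM in Het 5 and Mndal, named after its values were seen, at 115.23 TPM in Het 2, with the other Het libraries of Mndal at 74.1 to 83.4 TPM. Mndal belongs to a family of similar interferon-inducible genes that can share reads. Gm6750 was at 9.72 TPM in Het 4 and at 0 in the other Het libraries, and Rps15a-ps8 was at 48.83 TPM in WT 4 and at 0 in the other WT libraries.

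The Het effect on Gm3608 differed between the batches by -3.5422 (batch 2 minus batch 1, interaction adjusted p = 0.0486 in limma), since the gene was high in all 5 mutant libraries of batch 1 and low elsewhere.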

How the results depend on the processing

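The calls depended on the settings. The count of genes lower at an adjusted p under 0.05 went from 0 to 5 with array weights and to 1 in batch 1 alone and 1 in batch 2 alone. The count higher went from 1 to 3 with a pseudocount of 0.1, to 8 with array weights, to 2 without the batch term or in batch 1 alone, and to 0 with all genes above 0 TPM in 4 libraries, with a mean of at least 5 TPM, with quantile normalization, with only WT and Het libraries, with the replicate block and with the exact rank-sum test, whose smallest p in 5 against 5 libraries, 0.00794, cannot pass adjustment over 17325 genes unless many genes reach it. The replicate block, which pairs libraries by number, gave 0 lower and 0 higher calls, but the numbers did not pair the samples (correlations of same-numbered libraries -0.025 to 0.109, own number best in 3 of 5). Trmt9b was called in 10 of 28 other settings. Leaving out 1 library gave 0 to 6 lower and 0 to 7 higher calls, 399 to 586 lower and 372 to 858 higher genes at an unadjusted p under 0.05, and 0 to 39 genes called for the interaction with batch, with 39 without WT 4. Among these fits the largest counts of calls were without Het 2. At an unadjusted p under 0.05, 288 genes were lower with a mean of at least 5 TPM, and 364 were higher without the batch term, 852 with array weights, 904 in batch 1 alone and 325 in batch 2 alone. The interaction was called for 2 genes with a pseudocount of 0.1, by title form of the batch or without the trend, for 4 with the filter above 0 TPM, and for 0 with a mean of at least 5 TPM, median-ratio scaling, quantile normalization or only WT and Het libraries. Directions reversed for Chd7 (0.0048 with array weights, 0.297 in batch 1 alone; -0.2229 to 0.0746 leaving out 1 library), gene span (-0.038 in batch 2 alone; -0.0145 to 0.0227, negative without WT 1 and without Het 2), Neurod1 (0.0175 with array weights, 0.1511 in batch 1 alone; -0.0919 to 0.058 leaving out 1 library, positive without WT 5), Cnksr3 (-0.0606 with array weights, -0.0509 without Het 2; -0.0509 to 0.1724 leaving out 1 library), Calb1 (0.1072 in batch 2 alone) and Gm3608 (-0.7752 in batch 2 alone). The causes were not tested. Genes named only for their level, such as Fabp7, Zic1, Pax6, Dcx and Ttr, were fitted by batch but not under the other settings, and these 5 had opposite signs in the batches. Without read counts the precision of low values is unknown.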
